A study of Mus musculus with 17 samples.

Results

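The genes described here are 48 autosomal mouse genes that encode subunits of ATP-dependent chromatin remodelers, taken by name: 25 of BAF and PBAF, 5 of ISWI, the 9 CHD genes, 4 NuRD partners of CHD proteins and 5 of INO80, SRCAP and p400. Each was scored for an H3.3 peak in pachytene spermatocytes, within 1 kb of the start of any of its transcripts. In Arid1a cKO, 34 of the 48 genes had such a peak, a share of 70.8% (95% Wilson interval 56.8 to 81.8%). Over all 20807 autosomal protein-coding genes the share was 29.5% (28.9 to 30.2%). In Arid1a WT, 0 of the 48 genes had one, which allows a share of up to 6.25%, against a share of 0.0% (0 of 20807) over all genes. Absence from the WT list is not absence of H3.3. The intervals and the limit cover counting error only.

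H3.3 was profiled by CUT&RUN, in which an antibody guides a nuclease to its target and the cut fragments are sequenced. The series has 17 libraries: H3.3 was profiled in 2 of Arid1a WT and 3 of Arid1a cKO, and the 12 for ARID1A were not used here. The deposited H3.3 peaks are 1 combined list per genotype, 228 rows for WT and 12183 for cKO, so no value below has a replicate error and no test of genotype is possible. The sequencing depth behind the lists is unknown.

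The cells were purified from pooled testes of adult males by sedimentation at unit gravity (Sta-Put). The Arid1a cKO males were Arid1a fl/fl with 1 copy of a Stra8-Cre transgene, which is active in germ cells from the spermatogonial stage. The Arid1a WT controls were males of the same crosses, Arid1a fl/fl or fl/+, so that floxed alleles are common to both groups. The floxed line is on a CD1 background. The study describes cKO spermatocytes that escape excision, so the cKO list reports a mixture of cells with and without ARID1A, in proportions that the peaks do not give. The lists hold no expression values, so the cell type could not be checked against marker genes. The floxed exons of Arid1a are inside the gene, away from its start, so its peak does not check the deletion.

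Chromatin remodelers use the energy of ATP to slide, evict or exchange nucleosomes. BAF opens chromatin at promoters and enhancers, and ARID1A and ARID1B are alternative AT-rich-interaction subunits of its canonical form. PBAF carries ARID2 in their place, and it also holds PBRM1, BRD7 and PHF10. ISWI remodelers space nucleosomes, NuRD joins a CHD ATPase to histone deacetylases, and SRCAP and p400 exchange the histone variant H2A.Z. H3.3 is a histone variant that is laid down outside replication, at active promoters and, in male meiosis, on the silenced X and Y chromosomes.

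Promoter sequences of 3 pairs of related subunits show where the cKO peaks lie and what starts without a peak look like. They are RefSeq promoters on GRCm38 (mm10), 300 bases long and mostly upstream of a start, written 5′ to 3′ on the gene's strand, with capitals for bases inside a cKO peak. Arid1a (chr4:133756720-133757019, minus strand) and Arid1b (chr17:4994824-4995123, plus strand) are the alternative BAF subunits. Smarca4 (chr9:21615919-21616218, plus strand) and Smarca2 (chr19:26604910-26605209, plus strand) encode the mutually exclusive BAF ATPases BRG1 and BRM. Brd9 (chr13:73937561-73937860, plus strand) and Brd7 (chr8:88362123-88362422, minus strand) encode bromodomain subunits of noncanonical BAF and of PBAF.
Arid1a: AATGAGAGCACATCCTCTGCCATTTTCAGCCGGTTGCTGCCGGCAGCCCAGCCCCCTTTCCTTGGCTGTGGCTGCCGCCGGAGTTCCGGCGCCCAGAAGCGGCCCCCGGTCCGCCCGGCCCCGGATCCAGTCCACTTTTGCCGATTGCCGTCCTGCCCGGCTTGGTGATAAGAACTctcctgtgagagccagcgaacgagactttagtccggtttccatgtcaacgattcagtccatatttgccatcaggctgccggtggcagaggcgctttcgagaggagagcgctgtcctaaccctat
Arid1b: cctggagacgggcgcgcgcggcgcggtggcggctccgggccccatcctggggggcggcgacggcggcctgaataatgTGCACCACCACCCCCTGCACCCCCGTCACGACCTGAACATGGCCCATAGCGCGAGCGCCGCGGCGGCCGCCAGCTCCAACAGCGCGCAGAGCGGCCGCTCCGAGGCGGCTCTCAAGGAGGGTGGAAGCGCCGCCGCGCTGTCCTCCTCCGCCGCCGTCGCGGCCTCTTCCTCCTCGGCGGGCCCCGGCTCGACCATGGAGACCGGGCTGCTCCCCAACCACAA
Smarca4: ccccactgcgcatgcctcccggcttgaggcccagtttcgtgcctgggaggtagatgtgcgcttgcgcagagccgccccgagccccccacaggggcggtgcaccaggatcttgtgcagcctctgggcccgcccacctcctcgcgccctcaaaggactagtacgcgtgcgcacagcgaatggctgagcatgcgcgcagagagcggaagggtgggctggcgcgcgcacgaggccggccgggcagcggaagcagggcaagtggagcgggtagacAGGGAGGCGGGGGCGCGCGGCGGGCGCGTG
Smarca2: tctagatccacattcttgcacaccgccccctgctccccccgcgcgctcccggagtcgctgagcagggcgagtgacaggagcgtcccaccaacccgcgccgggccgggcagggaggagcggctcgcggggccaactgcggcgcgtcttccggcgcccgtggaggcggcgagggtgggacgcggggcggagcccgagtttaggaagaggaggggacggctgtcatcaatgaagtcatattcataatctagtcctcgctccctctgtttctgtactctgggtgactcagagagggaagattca
Brd9: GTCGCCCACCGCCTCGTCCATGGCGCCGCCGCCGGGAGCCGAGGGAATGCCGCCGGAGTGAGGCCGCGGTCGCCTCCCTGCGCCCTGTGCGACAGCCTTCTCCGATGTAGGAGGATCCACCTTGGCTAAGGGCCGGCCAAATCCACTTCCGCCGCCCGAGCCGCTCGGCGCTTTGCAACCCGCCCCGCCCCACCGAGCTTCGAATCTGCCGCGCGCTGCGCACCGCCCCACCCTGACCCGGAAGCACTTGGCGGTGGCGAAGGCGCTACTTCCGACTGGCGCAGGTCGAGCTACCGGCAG
Brd7: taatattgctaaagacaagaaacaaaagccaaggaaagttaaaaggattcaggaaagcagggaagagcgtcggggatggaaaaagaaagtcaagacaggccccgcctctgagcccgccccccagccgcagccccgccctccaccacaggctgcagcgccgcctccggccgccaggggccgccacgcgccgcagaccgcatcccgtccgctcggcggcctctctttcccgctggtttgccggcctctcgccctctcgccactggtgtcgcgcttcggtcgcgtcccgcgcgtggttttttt

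The Brd9 promoter lay wholly inside its peak, Arid1b had 74.3% of its bases inside, Arid1a had 58.7%, and in Smarca4 the peak began 30 bases before the window ended. Arid1a has a further RefSeq promoter at an inner start, chr4:133753936-133754235, which had 0 bases in a peak, with 79.7% GC and 36 CpG. The Smarca2 and Brd7 promoters had no base in a peak. GC content was 65.7% with 29 CpG in Smarca2 and 64.0% with 31 CpG in Brd7. Of the promoters with a peak, Arid1b with 75.3% GC and 42 CpG, Brd9 with 72.0% and 40 and Smarca4 with 72.3% and 33 were higher, and Arid1a with 61.3% and 22 was lower.

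The strongest peak of the set is shown by the 300 bases around its centre, chr7:73537761-73538060 on the minus strand, inside Chd2, with each CG dinucleotide in capitals. The 300 bases held 30 CpG and had a GC content of 65.3%.
Chd2: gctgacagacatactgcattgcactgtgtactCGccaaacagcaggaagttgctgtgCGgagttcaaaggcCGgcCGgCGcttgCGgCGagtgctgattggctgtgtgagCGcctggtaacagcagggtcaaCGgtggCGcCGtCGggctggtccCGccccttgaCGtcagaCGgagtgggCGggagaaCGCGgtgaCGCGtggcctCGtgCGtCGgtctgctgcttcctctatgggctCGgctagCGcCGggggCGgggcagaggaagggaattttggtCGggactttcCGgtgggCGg

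Within BAF and PBAF, 15 of 25 genes had a cKO peak, a share of 60.0% (40.7 to 76.6%). The value given for a peak is the authors' fold of H3.3 over the IgG background, and a gene with several peaks is represented by the one of highest fold. The folds of the 15 ran from 3.11 to 6.0 with a median of 4.28, beside a median of 4.12 over the 6145 genes with a peak. Their widths had a median of 638 bp, beside 448 bp over all genes with a peak.

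Arid1a itself had 2 peaks in Arid1a cKO and none in WT. The higher, at chr4:133752550-133753055, had a fold of 3.42 and lay wholly in exons with its centre in coding sequence, 556 bp downstream of an inner transcript start. The other, at chr4:133756844-133757418, had a fold of 2.86 and lay 75 bp upstream of the outermost start. Both were low for the list: 3.42 stood at percentile 22.9 of the folds of genes with a peak. Arid1b, the paralogue, had 1 broad peak, chr17:4994901-4995961, with a fold of 4.09 and a width of 1061 bp. This peak covered 2 of the 6 annotated starts, the outermost protein-coding start among them, and 96.4% of it lay in exons. Arid1b also held the only peak inside a listed gene that was over 1 kb from every start, at chr17:5189796-5190102 with a fold of 6.24.

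Of the BAF ATPase genes, Smarca4 had a peak of fold 3.83 and width 475 bp over a start, and Smarca2, which has 42 annotated starts, had none. The nearest cKO row to a Smarca2 start lay 657988 bp away, the farthest of the 48 genes.

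Brd9 had the highest fold in BAF, 6.0 over 428 bp at chr13:73937441-73937868. The start of Trip13, which encodes a meiotic AAA ATPase, also lay within 1 kb of this peak, so that the peak cannot be assigned to 1 of the 2 genes. The same held for Smarcc1, a core scaffold subunit, whose peak of fold 5.54 at chr9:110116925-110117756 lay within 1 kb of a start of Dhx30. Smarcc1 had a further peak of fold 4.33 at an inner start, chr9:110131912-110132603. Actl6a, an actin-related subunit, had a fold of 5.39, and the scaffold subunit gene Smarcd1 had a fold of 5.31, each over a start, an inner one in Actl6a.

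The remaining BAF genes with a peak were the core subunit genes Smarcb1 with a fold of 4.28, Smarce1 with 3.95 and Smarcd3 with 3.11, the Bcl7 family genes Bcl7b with 4.68 and Bcl7c with 4.02, Ss18 with 4.50, and Dpf2, a PHD-finger subunit, with 3.74. The Smarcd3 peak was the narrowest of the set, 110 bp in a single row of the list.

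Of the 4 genes particular to PBAF, only Arid2 had a peak, a share of 25.0% (4.56 to 69.9%), beside 14 of the 21 other BAF genes, 66.7% (45.4 to 82.8%). The Arid2 peak, chr15:96284951-96286794 with a fold of 5.15, was the widest of the set at 1844 bp. It lay wholly upstream of the gene, 724 bp from its start and within 1 kb of a start of the noncoding gene 2610037D02Rik. Pbrm1, Brd7 and Phf10 had none. Also without a peak were Smarcc2, Smarcd2, Bcl7a and the 3 subunit genes known from neuronal BAF, Dpf1, Dpf3 and Actl6b (0 of 3). In several families of paralogues 1 gene had a peak and another had none: Smarca4 and Smarca2, Smarcc1 and Smarcc2, Smarcd1 and Smarcd2, Actl6a and Actl6b, Dpf2 and Dpf1, Brd9 and Brd7. Other pairs were alike. Both genes had a peak in Arid1a and Arid1b, Smarcd1 and Smarcd3, and Bcl7b and Bcl7c, and neither had one in Dpf1 and Dpf3. Among genes with so few members the intervals overlap, and no difference between subunit classes was tested.

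**Figure D1:**
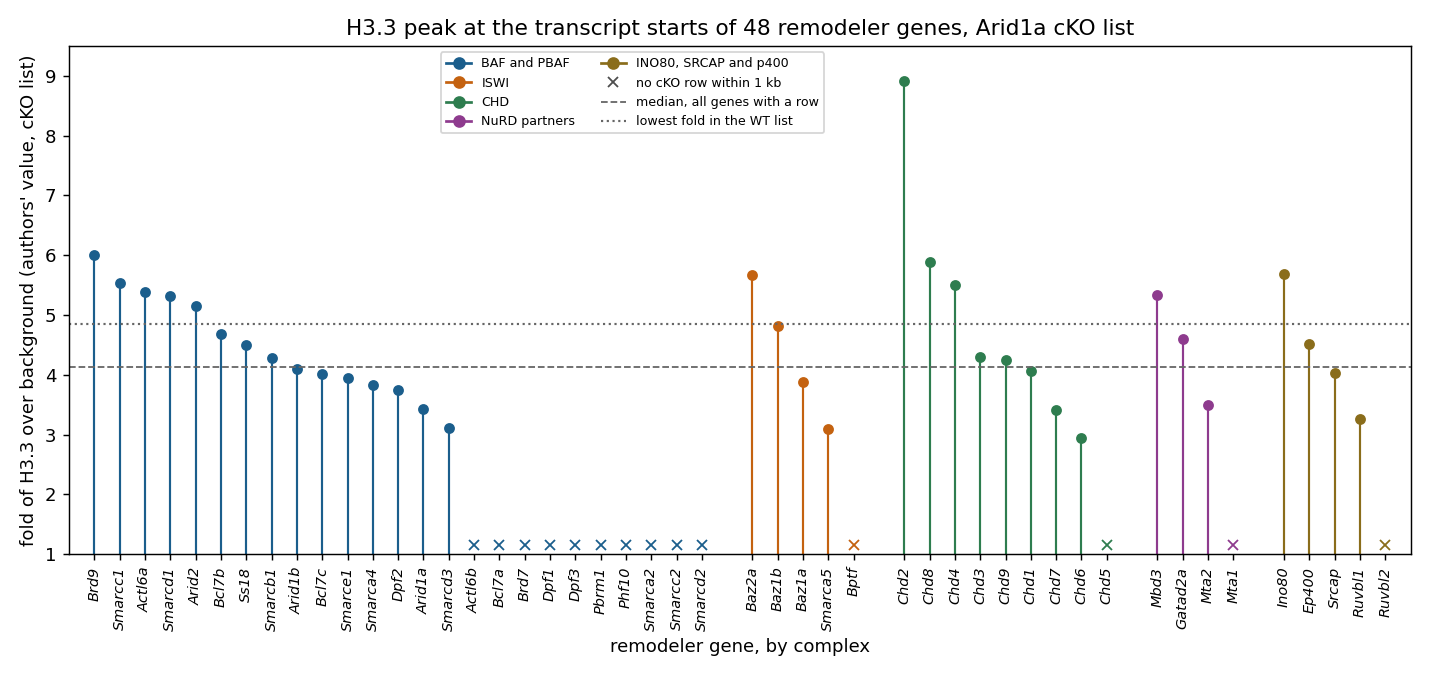
Fold of the H3.3 peak (vertical axis, the authors' ratio over background in the Arid1a cKO list) for each of the 48 remodeler genes, grouped by complex. Points are the peak of highest fold within 1 kb of a transcript start, and crosses the 14 genes with none. Chd2 stands alone at 8.91, the other points lie between 2.94 and 6.0, and 10 of the 14 crosses are BAF or PBAF genes. The dashed line is the median over all genes with a peak, 4.12, and the dotted line the lowest fold in the WT list, 4.85.

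The genes outside BAF and PBAF had a peak in 19 of 23 cases, 82.6% (62.9 to 93.0%). Their median fold was 4.30, from 2.94 to 8.91, and their median width 479 bp. The interval of their share overlapped that of BAF and PBAF, and the difference was not tested. With the most upstream start only, the shares were closer, 65.2% (15 of 23) beside 56.0% (14 of 25) in BAF and PBAF. With a −log10 q of at least 3 they were 60.9% and 52.0%.

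Among the CHD genes, 8 of 9 had a peak, 88.9% (56.5 to 98.0%). Chd2, whose product has been tied to H3.3 incorporation, had the highest fold of all 48, 8.91 with a −log10 p of 19.7 and a −log10 q of 15.4. Its fold stood at percentile 99.4 among genes with a peak. The peak, chr7:73537729-73538091, was 363 bp wide and lay almost wholly in an intron (99.4% of its bases), 108 bp upstream of an inner protein-coding transcript start. Its centre was 3836 bp downstream of the outermost protein-coding start of Chd2, and the noncoding gene Gm44686 also starts within 1 kb of it. Chd1, the closest relative of Chd2, had a fold of 4.06 just upstream of its start, with a gap of 153 bp.

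Of the CHD genes whose products can be the NuRD ATPase, Chd4 had a fold of 5.50 over 932 bp, Chd3 a fold of 4.30, and Chd5, known from neurons and testis, had no peak. The Chd3 peak, chr11:69368206-69368684, lay 707 bp downstream of the closest start, in an intron. Of the others, Chd8 had a fold of 5.88 over 608 bp and Chd9 a fold of 4.24 at an inner start, 80550 bp into the gene from its outermost protein-coding start. Chd7, whose human counterpart is mutated in CHARGE syndrome, had a low fold of 3.42 but a width of 1649 bp, the second of the set. Chd6 had the lowest fold, 2.94 over 220 bp in a single row, upstream of its start.

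Of the NuRD partners, Mbd3 had a fold of 5.33 over 1049 bp, Gatad2a folds of 4.59 and 4.52 at 2 starts, and Mta2 a fold of 3.50. Mta1 had none, and the nearest row lay 8603 bp away. With Chd3, Chd4 and Chd5 counted in, 5 of 7 NuRD genes had a peak.

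In ISWI, 4 of 5 genes had a peak. Smarca5, the ATPase gene, had one of the lowest folds of the set, 3.09 over 536 bp across its start. The genes of its partners were higher: Baz2a, of the nucleolar complex NoRC, had 5.67, Baz1b, of WICH, had 4.82 over 1151 bp, and Baz1a, of ACF, had 3.88. The Baz1a peak lay at an inner start, 28600 bp into the gene, with a start of the predicted gene Gm20403 within 1 kb. Baz2a had a further peak of fold 3.71. Bptf, of NURF, had none.

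In the INO80, SRCAP and p400 group, 4 of 5 genes had a peak. The ATPase genes had folds of 5.69 for Ino80, 4.04 for Srcap and 4.51 for Ep400. Ruvbl1, which encodes an AAA ATPase shared by these complexes, had a fold of 3.26, and its partner Ruvbl2 had none. Over all complexes, 13 of the 15 ATPase genes of the Snf2 family had a peak, 86.7% (62.1 to 96.3%). The exceptions were Smarca2 and Chd5. Of the 33 other listed genes 21 had one, 63.6% (46.6 to 77.8%), and the share over all autosomal genes was 29.5%. The intervals of the ATPase genes and the other listed genes overlapped, and the difference was not tested.

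**Figure D2:**
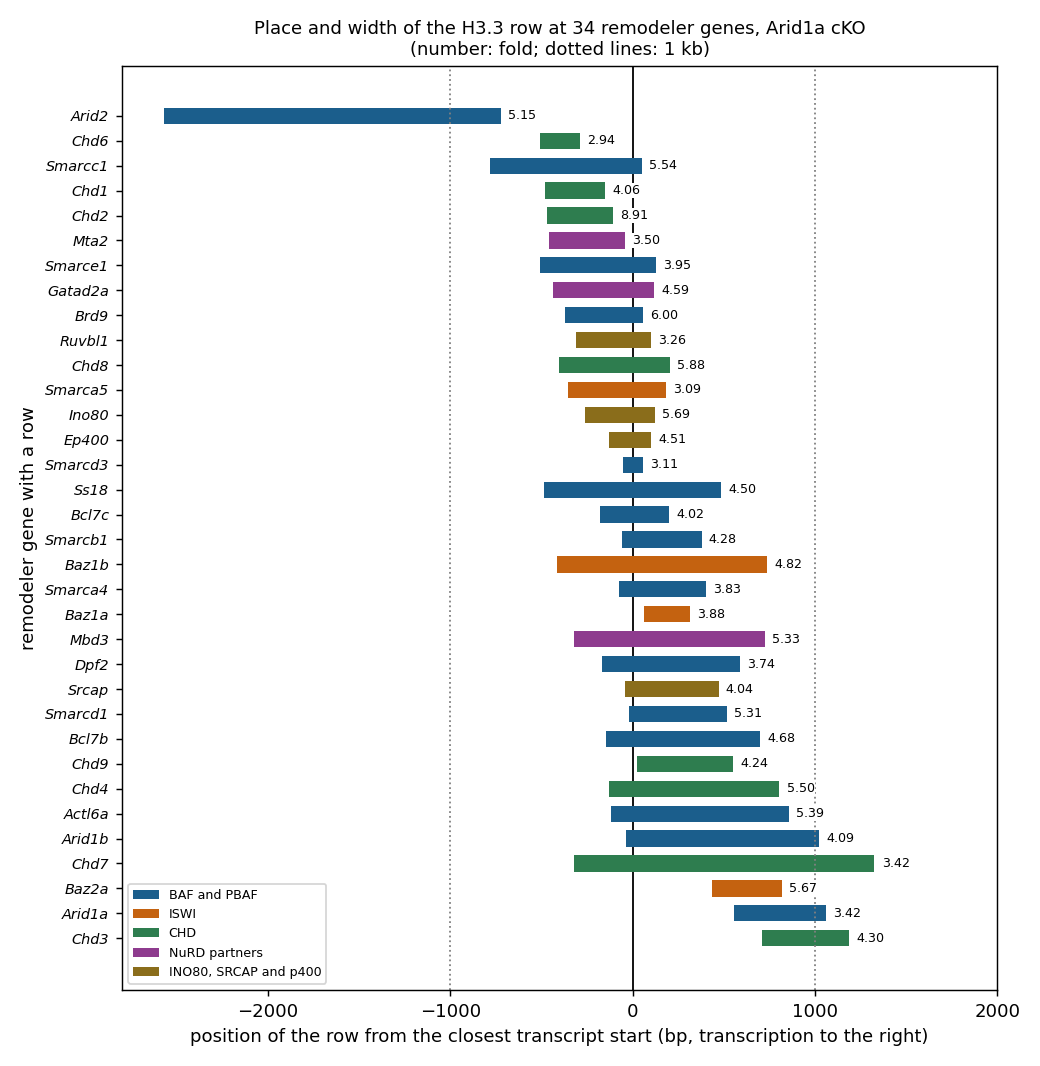
Position of the H3.3 peak at the 34 remodeler genes that had one in the Arid1a cKO list (bars, in bp from the closest transcript start at 0, with transcription to the right; numbers give the fold, colours the complex, dotted lines 1 kb). In 24 genes the bar covers a start, in 5 it lies upstream and in 5 downstream, and Arid2 and Chd3 are the genes whose bar is farthest from a start.

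Only peaks within 1 kb of a start were counted, so their closeness to starts was set by the scoring. In 24 of the 34 genes (70.6%) the peak covered at least 1 transcript start, beside 76.8% of all genes with a peak. It lay upstream in Arid2, Chd1, Chd2, Chd6 and Mta2 and downstream in Arid1a, Baz1a, Baz2a, Chd3 and Chd9. By the genes' own transcripts, the centre of the peak lay in a coding exon in 9 genes, in a UTR exon in 9, in an intron in 7 and upstream of the gene in 9. Arid2 (724 bp) and Chd3 (707 bp) were the genes nearest to the limit of 1 kb from inside. From outside the nearest was Phf10, 3393 bp from a row. Each of the 34 had a start of a protein-coding transcript within 1 kb of the peak.

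The 5 widest peaks, all over 1 kb, belonged to Arid2, Chd7, Baz1b, Arid1b and Mbd3, a share of 14.7% of the 34 beside 8.41% of all genes with a peak. Width did not follow fold in these: their folds ran from 3.42 to 5.33, while Chd2 and Brd9, the highest, were 363 and 428 bp wide. Over the 34 genes the median fold was 4.29 (95% order-statistic interval 3.95 to 5.15) and the median width 520.5 bp, beside 4.12 and 448 bp over all genes with a peak. A peak fold is that of the whole peak called by the authors, while a width is that of the piece left after overlapping the libraries.

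**Figure D3:**
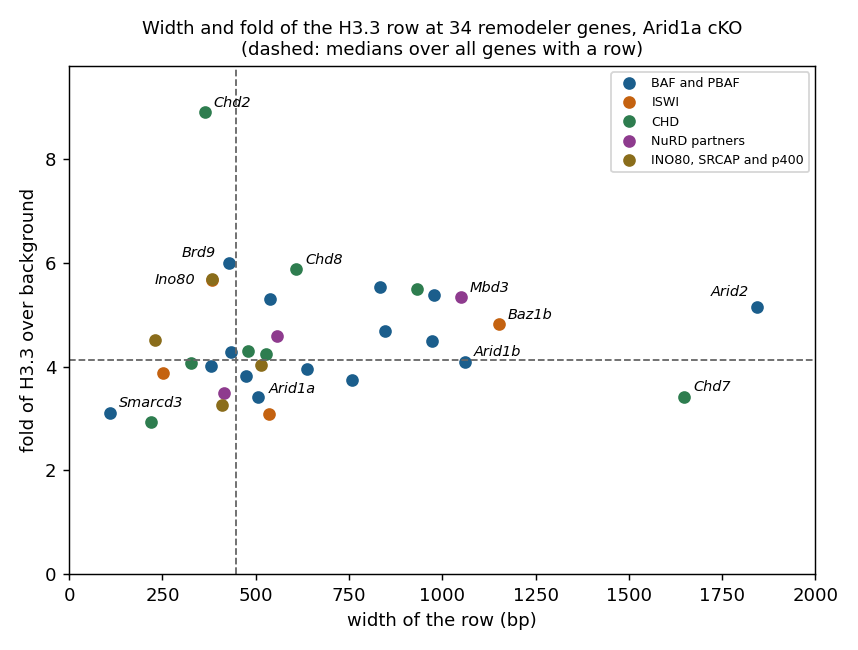
Width (bp, horizontal) and fold over background (vertical) of the H3.3 peak at the 34 remodeler genes with one in the Arid1a cKO list, coloured by complex; dashed lines are the medians over all genes with a peak, 448 bp and 4.12. Chd2 has the highest fold at 8.91 with a width of 363 bp, and Arid2 the greatest width, 1844 bp, with a fold of 5.15.

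The absence of the 34 genes from the WT list has to be read beside how that list ends. Its lowest fold was 4.85 and its lowest −log10 p 6.12, while the cKO list reached down to a fold of 2.80 and a −log10 p of 4.21. In 11 of the 34 genes (32.4%) the cKO peak reached both WT minima, beside 28.2% of all genes with a peak. These were Arid2, Smarcc1, Smarcd1, Brd9, Actl6a, Baz2a, Chd2, Chd4, Chd8, Mbd3 and Ino80. The other 23, Arid1a, Arid1b and Smarca4 among them, all had cKO peaks below the WT minimum of fold, the highest being Baz1b at 4.82. Some of them, such as Arid1a, were also below the WT minimum of −log10 p. Only 4 of the 228 WT rows were autosomal, and the nearest to a listed gene lay 17.5 Mb from a start of Chd4. With 1 list per genotype, made from 2 libraries and from 3, genotype, depth and the number of libraries cannot be told apart. The paper also describes H3.3 coverage: starts of autosomal genes regulated by ARID1A had signal above IgG, and more of it in cKO than in WT. A gene missing from the WT list can therefore still carry H3.3 at its start.

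The listed genes differed from most genes in their starts. In 37 of 48 (77.1%) the 1 kb around the most upstream start was CpG-rich, by a GC content of at least 55% and a CpG ratio, observed over expected, of at least 0.6. Over all genes this was 39.7%. They also had a median of 6.5 annotated starts beside 3 over all genes, and each start adds a window in which a peak can fall. Both features went with the share over all genes: 56.9% (4699 of 8252) of genes with a CpG-rich start had a cKO peak and 11.5% (1446 of 12555) of the others, and the share ran from 12.5% of genes with 1 start to 49.8% of genes with 7 or more. Among CpG-rich genes with 7 or more starts it was 63.9%, and 11 of the 17 listed genes of that kind had a peak (64.7%, 41.3 to 82.7%). With 4 to 6 starts the values were 60.0% and 12 of 18 (66.7%, 43.8 to 83.7%). In these classes the share over all genes lay within the interval of the listed genes. Where the most upstream start was not CpG-rich it did not, but that class was not split by the number of starts. There 9 of 11 listed genes had a peak (81.8%, 52.3 to 94.9%), beside 11.5% over all genes. Among the 9 were Actl6a, Baz1a, Baz2a, Chd2 and Chd9, whose peaks lie at inner starts.

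Reading CpG content at every start, 46 of the 48 genes were CpG-rich at 1 or more, and 32 of these had a peak (69.6%, 55.2 to 80.9%), beside 55.1% (54.1 to 56.1%) of the 9885 such genes over the genome. This class was added after the data had been seen. All 25 BAF and PBAF genes were in it, so the class cannot set apart those with a peak from those without. Their share, 15 of 25 (60.0%, 40.7 to 76.6%), had the 55.1% over all such genes within its interval. For the listed genes of the other complexes it was 17 of 21 (80.95%, 60.0 to 92.3%), and 55.1% lay below that interval. These shares do not take the number of starts into account. Within the class, 30 of 43 listed genes with 4 or more starts had a peak (69.8%, 54.9 to 81.4%), beside 58.8% over all genes of that kind. That share lay within the interval of the listed genes. The 58.8% also lay within the interval of BAF and PBAF, 14 of 23 (60.9%, 40.8 to 77.8%). It lay near the lower end of that of the other complexes, 16 of 20 (80.0%, 58.4 to 91.9%). The 14 genes without a peak had a median GC content of 65.2% at their most upstream start and 6.5 starts, beside 62.8% and 6.5 for the 34 with one.

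RefSeq promoters were at hand for 39 of the 48 genes, 45 in all, and 21 of the 45 (46.7%) overlapped a cKO peak, beside 23.1% of 19174 promoters of all genes. Their median GC content was 68.3% where a peak overlapped and 66.8% where none did. Over all promoters these were 65.3% and 54.3%. The GC box GGGCGG, searched on both strands, was in 20 of the 21 overlapping and 23 of the 24 other promoters, and in 48.3% of all. CCAAT was in 8 and in 6 (37.5% of all), the ETS-like CCGGAAG in 5 and in 2 (12.1%), the YY1 core ATGGCG in 7 and in 4 (11.1%) and TATAAA in 2 and in 1 (12.1%). Over all promoters that overlapped a peak, the shares were 77.3% for GGGCGG, 40.3% for CCAAT, 25.2% for CCGGAAG, 20.2% for ATGGCG and 3.68% for TATAAA. Over all promoters that did not, they were 39.6%, 36.7%, 8.18%, 8.41% and 14.7% in the same order. CCGGAAG and ATGGCG are both in the Brd9 promoter shown above. A match to these letters is not a bound site, and the counts are too few to set the groups apart.

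**Figure D4:**
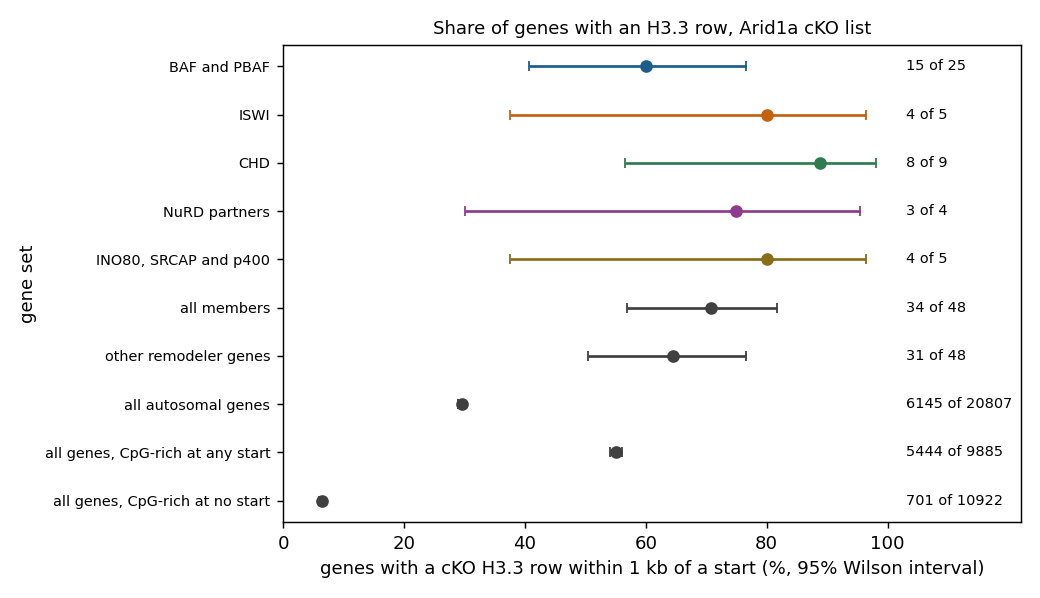
Share of genes with an H3.3 peak within 1 kb of a transcript start in the Arid1a cKO list (horizontal, %, with 95% Wilson intervals for counting error only) for each complex, the 48 listed genes, 48 further remodeler genes and genes of the genome; counts stand at the right. The complexes lie between 60.0 and 88.9%, all autosomal genes at 29.5%, and genes CpG-rich at any start at 55.1%.

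A further 48 autosomal genes of remodeler subunits, scored the same way, had a peak in 31 cases (64.6%, 50.4 to 76.6%), with a median fold of 4.41 from 2.91 to 10.3. The highest were Hdac2, a NuRD deacetylase, at 10.3, Actr8, an INO80 subunit, at 6.53 and Kat5, the acetyltransferase of the p400 complex, at 6.48. Of the further BAF genes, Actb had a fold of 6.03, Bcl11a 3.42 and Bicral 3.14, and Bicra, Ss18l1 and Bcl11b had no peak. All 48 were absent from the WT list at these starts.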

How the data were processed

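H3.3 CUT&RUN libraries of Arid1a WT (n = 2) and Arid1a cKO (n = 3) were grouped by their sample labels. The authors trimmed reads with Trim Galore, aligned them to mm10 with Bowtie2, removed duplicates with Picard, called broad peaks per library with MACS2 against an IgG library of another study, and intersected the replicates into 1 deposited list per genotype. Column 7 of a deposited list is a ratio, the fold over background of a peak. The deposited lists also carry the −log10 p and −log10 q of each peak. A peak can appear in more than 1 row with the same fold, with the same or different ends, and overlapping rows were merged into regions. Per-sample columns left unmatched numbered 0. Tool versions of the authors are not repeated here.

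Genes and transcripts were those of GENCODE M21, and sequences came from RefSeq and GRCm38. A gene had a peak where any base of a row lay within 1 kb of a transcript start. No test was run, because each genotype is 1 list. Shares have 95% Wilson intervals. The scoring was tested on simulated data: 200 of 200 planted rows were scored as planted among 20807 genes. Each was a single row at a gene far from the starts of other genes. Overlapping rows and starts shared by neighbouring genes were not checked in this way. The members, complexes and the further list were chosen with earlier results of these data known. Values in full were given for Arid1a, Arid1b, the ATPase genes, the 10 highest folds, the 5 widest peaks and the genes nearest to the limit, and every other gene is at least named. Alternatives covered the window, the transcripts, the −log10 q, the rows per region and CpG content. Scripts ran under Python 3.11.15 and used pandas 2.3.3, numpy 2.4.6, scipy 1.17.1 and matplotlib 3.10.9.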

Additional observations from a re-analysis of the deposited data

How the results depend on the processing

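The count of remodeler genes with a cKO peak stayed between 27 and 34 under a window of 500 bp or 2 kb, protein-coding transcripts or the most upstream start only, region centres, a −log10 q of at least 3 and regions of at least 2 rows. With a −log10 q of at least 5 it was 11 of 48 (22.9%), of which 4 were BAF or PBAF genes and 7 others, their median fold was 5.54, and the share over all genes was 9.56%. The share over all genes was 28.9% with 500 bp, 27.2% with the most upstream start, 20.8% with a −log10 q of at least 3, 27.1% with at least 2 rows, 56.9% among genes with a CpG-rich start and 55.1% with CpG read at any start, the last added after seeing the data. Arid2 and Chd3 were lost at 500 bp, Arid2 with region centres, and Actl6a, Baz1a, Baz2a, Chd2 and Chd9 with the most upstream start. Arid1a, Baz1a, Chd6, Mta2, Ruvbl1, Smarca5 and Smarcd3 were lost at a −log10 q of 3. Leaving out the 3 genes whose peak lies at another protein-coding gene's start left 31, a choice also made after seeing the data. In WT the count was 0 of 48 under each of the 8 alternatives run on it. None of these could have changed it, because the nearest WT row lay 17.5 Mb from a listed gene's start.

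The limits are those of the lists: 1 per genotype, without replicate values, with unknown depth and different lowest folds. The alternative of leaving out a replicate was not run, as the lists have none. No paired analysis was possible because each list combines its libraries and carries no replicate columns.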
